A study of Mus musculus with 2 samples.

Results

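Small leucine-rich proteoglycans (SLRPs) were examined as 10 genes of the 27998 measured in single cells of mouse muscle: Dcn, Bgn, Aspn, Lum, Fmod, Prelp, Kera, Omd, Ogn and Podn. They were taken by name, and UMIs (unique molecular identifiers, 1 per captured transcript) were summed per cell class and muscle. SLRPs are secreted proteins with a core of leucine-rich repeats, most of them carrying chondroitin, dermatan or keratan sulfate chains. They bind collagen fibrils and set how fibrils assemble and how thick they grow, and several also bind growth factors such as TGF-beta. In muscle they belong to the matrix between fibres, and in tendon they are among the most abundant non-collagenous proteins.

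The study compared a limb muscle, quadriceps, with the respiratory muscle, diaphragm, in C57BL/6J mice, with no treatment named. Age and sex were not given in the sources used here. Cells from 5 animals were pooled per muscle, 10 mice in all, and viable mononuclear cells were sorted on light scatter and captured in droplets, so there was 1 library per muscle and no replicate of either. No test between muscles or cell classes was therefore possible. Differences are given by size, a 2-fold difference being named as such, and 95% intervals are exact Poisson intervals for levels, exact conditional intervals for ratios and exact binomial (Clopper-Pearson) intervals for shares. These intervals cover counting error only. Muscle and library cannot be told apart in any difference between the muscles.

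There were 50854519 UMIs in 5159 barcodes of quadriceps and 28545242 UMIs in 2499 barcodes of diaphragm, and 5 barcode sequences occurred in both. Barcodes with at least 1000 UMIs were kept, 5010 and 2432. Fibro-adipogenic progenitors (FAPs), the connective tissue progenitors of muscle, were cells with at least 1 Pdgfra UMI and at least 50 Dcn UMIs, which left 2260 FAPs of quadriceps (median 10666.5 UMIs) and 2006 of diaphragm (median 12572.5 UMIs) after barcodes with markers of a second class were set aside. Other FAP markers were present in both, Cd34 at 1277 and 1244 CPM (UMIs of the gene per 1000000 UMIs of the class) and Gsn at 34007 and 32205 CPM. Ly6a (2516 and 1266 CPM), Cxcl14 (1589 and 558 CPM) and Smoc2 (2356 and 1497 CPM) were lower in diaphragm FAPs. Pi16 (1897 and 3453 CPM) was higher there, so the FAPs of the muscles were not alike in these markers. Tenocytes, the fibroblasts of tendon, numbered 71 in quadriceps. Of the 7 tenocyte markers, Thbs4 and Comp were not part of the gate. They were at 11363 and 3153 CPM in tenocytes, against 266 and 103.9 CPM in quadriceps FAPs. No diaphragm barcode passed the tenocyte gate, which asked for no Pdgfra UMI. Scx, the transcription factor that defines the tendon lineage, had 17 UMIs over all kept diaphragm barcodes, and tenocytes were compared with FAPs in quadriceps only. Smooth muscle cells numbered 1157 and 43, satellite cells 167 and 12, and endothelial cells 49 and 6. More than 5% of UMIs were mitochondrial in 22.4% and 21.9% of FAPs but in 85.9% of tenocytes and 99.8% of quadriceps smooth muscle cells. Lymphoid cells (T, B and NK cells), which should not make SLRPs, gave the level of free RNA, with 403 cells in quadriceps and 117 in diaphragm. UMIs were counted at 3′ ends and not divided by transcript length, so levels were compared for 1 gene across cells and not between genes.

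Most members lie in 3 gene clusters (GENCODE vM21, GRCm38). Dcn (chromosome 10, 97479609 to 97518143), Lum (97565128 to 97572703) and Kera (97606879 to 97613692) follow each other on the plus strand of chromosome 10, 47.0 and 34.2 kb apart. Aspn (49544443 to 49567565), Omd (49582462 to 49592822) and Ogn (49608046 to 49624501) lie on the plus strand of chromosome 13, 14.9 and 15.2 kb apart. Prelp (133910304 to 133921414, minus strand) and Fmod (134037254 to 134048277, plus strand) lie on chromosome 1, 115.8 kb apart. Bgn is on chromosome X (73483602 to 73495933, plus strand) and Podn on chromosome 4 (108014791 to 108096445, minus strand).

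Promoter windows from RefSeq (GRCm38.p6) were found for 8 of the 10 members. The 250 bases before the transcription start are shown for 3 of them because their genes set apart the cells described below: Fmod with tenocytes, Aspn with smooth muscle cells as well as FAPs, and Bgn with the muscle the FAPs came from. Capitals mark E-boxes (CANNTG), which bHLH factors bind, and TATAAA in either orientation.
Fmod, chr1:134037004-134037253, plus strand: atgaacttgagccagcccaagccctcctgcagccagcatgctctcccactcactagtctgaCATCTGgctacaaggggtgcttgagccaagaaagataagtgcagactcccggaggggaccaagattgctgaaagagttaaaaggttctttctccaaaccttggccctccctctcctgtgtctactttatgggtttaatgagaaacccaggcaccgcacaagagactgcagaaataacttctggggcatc
Aspn, chr13:49544193-49544442, plus strand: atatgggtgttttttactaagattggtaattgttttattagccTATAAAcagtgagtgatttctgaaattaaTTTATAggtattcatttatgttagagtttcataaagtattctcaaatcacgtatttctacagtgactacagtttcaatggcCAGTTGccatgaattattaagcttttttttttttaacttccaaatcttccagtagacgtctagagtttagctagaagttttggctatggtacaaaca
Bgn, chrX:73483351-73483600, plus strand: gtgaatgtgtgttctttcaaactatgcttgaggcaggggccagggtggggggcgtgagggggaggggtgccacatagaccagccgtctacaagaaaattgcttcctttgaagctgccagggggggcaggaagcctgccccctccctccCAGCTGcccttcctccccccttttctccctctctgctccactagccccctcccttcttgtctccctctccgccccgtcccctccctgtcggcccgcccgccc
The windows differed in base composition, with 30.0% G and C in Aspn, 51.2% in Fmod and 64.4% in Bgn. Each held 1 E-box, as 66.2% of all 32851 windows of this length held at least 1. Aspn alone of these held TATAAA, at 2 places, against 12.4% of all windows with at least 1. The CArG box, which serum response factor binds in smooth muscle genes, was found in none of the members' windows and in 1.47% of all windows. These matches describe letters only.

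The first comparison asked which cells held SLRP transcripts. FAPs held 84.9% of the SLRP UMIs of kept quadriceps barcodes and 97.0% of those of diaphragm. Dcn was part of the FAP gate, and without it FAPs held 71.8% (95% interval 71.6 to 72.0) of 197753 UMIs in quadriceps and 96.8% (96.8 to 96.9) of 210962 in diaphragm. In quadriceps the remainder of these 9 genes was mainly in smooth muscle cells (12.6%) and tenocytes (7.81%), classes with 43 and 0 cells in diaphragm. The genes took 0.572% of all UMIs of quadriceps FAPs, 0.790% of diaphragm FAPs and 2.48% of quadriceps tenocytes, against 0.00525% and 0.00888% of lymphoid cells.

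The members differed in how far FAPs held them. Lum (lumican, a keratan sulfate proteoglycan of fibrillar collagen) and Podn (podocan) were mostly in FAPs, with 93.2% and 90.8% of quadriceps UMIs in FAPs. Aspn (asporin, which binds collagen and TGF-beta) was divided between FAPs with 46.5% and smooth muscle cells with 43.9% of its UMIs. This split rests on keeping the smooth muscle cells, of which a limit of 5% mitochondrial UMIs left 2 of 1157. Shares of UMIs also follow the number of cells captured in each class. Fmod (fibromodulin) and Kera (keratocan), both keratan sulfate proteoglycans that share collagen-binding roles with lumican, had most of their quadriceps UMIs in the 71 tenocytes, 62.3% and 70.0%, and 25.0% and 22.6% in the 2260 FAPs.

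**Figure D1:**
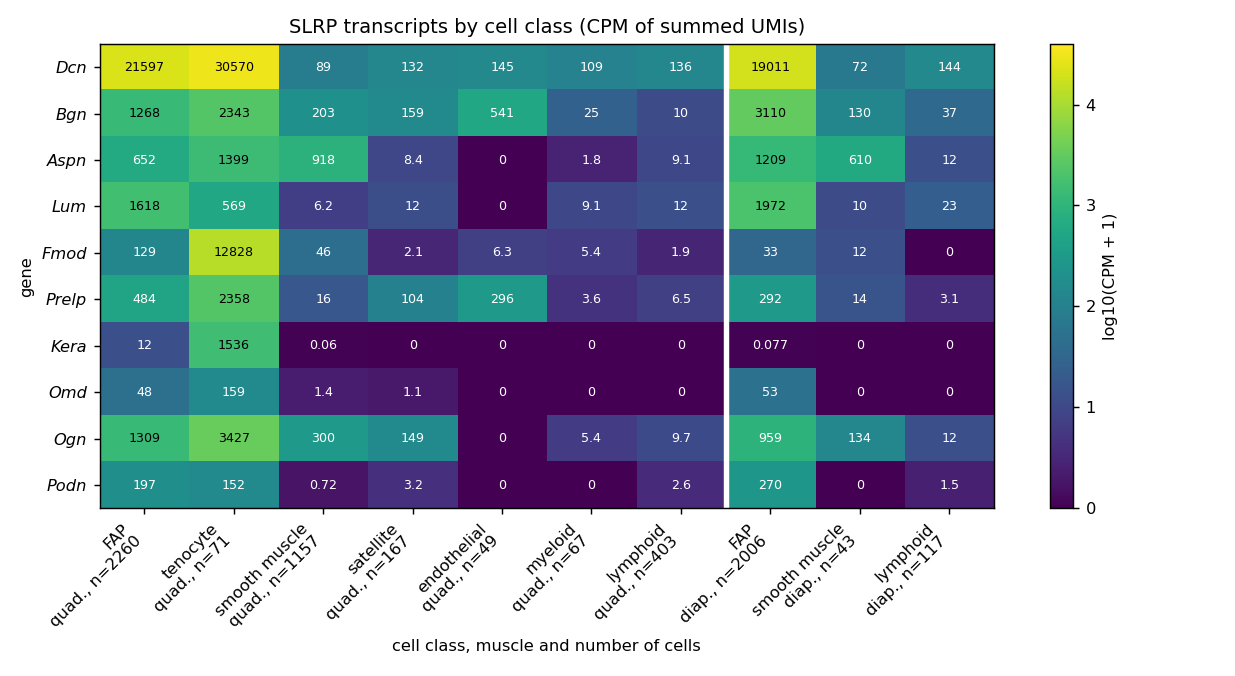
Level of each SLRP gene (rows) in each cell class (columns, with muscle and number of cells), as CPM of summed UMIs printed in the cells and as log10(CPM + 1) in color; the white line divides quadriceps from diaphragm. Fmod stands at 12828 CPM in tenocytes and 129 in quadriceps FAPs, and Aspn at 918 CPM in quadriceps smooth muscle cells and 9.07 in lymphoid cells.

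Tenocytes were compared with FAPs of the same library. Of the 10 members, 6 were at least 2-fold higher in tenocytes (Kera, Fmod, Prelp, Omd, Ogn and Aspn) and 1, Lum, was at least 2-fold lower. Of all 3471 genes that reached 50 CPM in one or the other class, 7.46% were at least 2-fold higher and 13.2% at least 2-fold lower. The median log2 difference was 1.24 over the members and -0.18 over all these genes.

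Fmod was at 12828 CPM (95% interval 12548 to 13112) in tenocytes and 129 CPM (125 to 134) in FAPs, a ratio of 99.4 (95.4 to 104). Every tenocyte had Fmod UMIs, with a median of 73 per cell, whereas 94.6% of FAPs had none. Kera was at 1536 CPM (1440 to 1636) and 12.5 CPM (11.1 to 14.0), a ratio of 123 (108 to 140), and 13 of the 71 tenocytes had no Kera UMI. Both genes thus marked tenocytes off from the bulk of FAPs, and Fmod did so in every tenocyte.

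Prelp (prolargin), which anchors basement membranes to connective tissue, was at 2358 CPM in tenocytes and 484 CPM in FAPs, 4.87-fold (4.61 to 5.14) higher. Omd (osteomodulin or osteoadherin, known from bone) was at 159 and 48.2 CPM, 3.29-fold (2.66 to 4.05) higher. Ogn (osteoglycin or mimecan, a regulator of fibril thickness) was at 3427 and 1309 CPM, 2.62-fold (2.50 to 2.74) higher. Aspn was at 1399 and 652 CPM, 2.15-fold (95% interval from 2.003) higher. These 4 genes were expressed in FAPs too, and the difference was one of degree.

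Bgn (biglycan, a dermatan sulfate proteoglycan and the closest relative of decorin) was at 2343 CPM in tenocytes and 1268 in FAPs, 1.85-fold (1.75 to 1.95) higher and short of 2-fold. Podn was at 152 and 197 CPM, a ratio of 0.772 (0.624 to 0.946). Dcn (decorin), which FAPs had to carry to be counted, was at 30570 and 21597 CPM.

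Lum was at 569 CPM (511 to 631) in tenocytes and 1618 CPM (1602 to 1634) in FAPs, a ratio of 0.352 (0.316 to 0.390). Of the 71 tenocytes, 36 had no Lum UMI, and 1 cell held 28.2% of the 355 Lum UMIs of the class. In the 10 tenocytes with at most 5% mitochondrial UMIs Lum was at 1956 CPM and Podn at 442 CPM, and in the other 61 at 215 and 78.5 CPM, so the direction for Lum did not hold in the cells with few mitochondrial UMIs. Fmod in these groups was at 8563 and 13916 CPM. The part of cell quality in these differences was not tested.

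**Figure D2:**
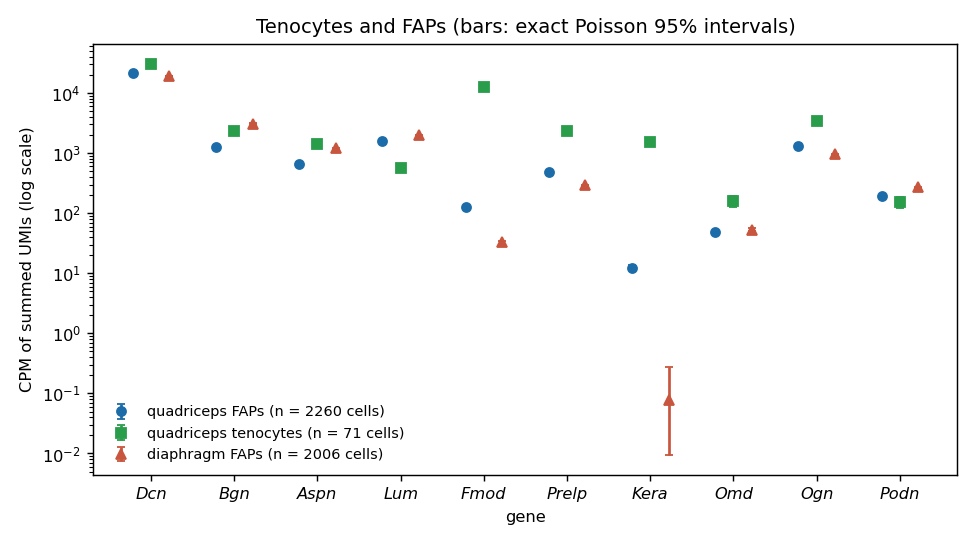
CPM of summed UMIs on a log axis for each SLRP gene in quadriceps FAPs (circles), quadriceps tenocytes (squares) and diaphragm FAPs (triangles), with exact Poisson 95% intervals, most of them smaller than the symbols. Fmod and Kera lie about 100-fold apart between tenocytes and quadriceps FAPs, while Lum lies lower in tenocytes at 569 CPM.

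The FAPs themselves held a few cells with tendon genes. In quadriceps, 28 of the 2260 FAPs also passed the Tnmd and tendon marker part of the tenocyte gate, and they held 88.1% of the Fmod UMIs of FAPs. The 193 quadriceps FAPs with any UMI of Tnmd, which encodes tenomodulin, a membrane protein of tendon, held 96.8% of FAP Fmod and 96.5% of FAP Kera. In the 2067 FAPs without Tnmd, Fmod was at 4.57 CPM (3.73 to 5.54) and Kera at 0.488 CPM (0.243 to 0.872), against lymphoid levels of 1.94 CPM for Fmod and 0 of 1543867 UMIs for Kera, which allows up to 1.94 CPM. Omd, Ogn and Prelp were at 42.9, 1186 and 433 CPM in the same cells.

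In diaphragm, 10 FAPs passed the Tnmd and tendon marker part of the tenocyte gate, and they held 9.47% of the Fmod UMIs of FAPs. Of the 2006 diaphragm FAPs, 407 had a Tnmd UMI. Fmod was at 105 CPM (96.5 to 114) in them and at 13.2 CPM (11.7 to 14.9) in the other 1599. No Kera UMI was found in the 407 cells, which allows up to 0.547 CPM, against 131 CPM (117 to 147) in the 193 quadriceps cells. Over all kept diaphragm barcodes Kera had 3 UMIs, 2 of them in 1 FAP. Quadriceps Kera was confined to few FAPs: 2228 of the 2260 had no Kera UMI, and 1 cell held 21.6% of FAP Kera. Tnmd-bearing FAPs were therefore found in both muscles. Keratocan transcripts were with them only in the quadriceps library, in a small part of these cells.

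The second comparison asked whether FAPs of the muscles differed in their SLRPs. Bgn was the 1 member that stayed at least 2-fold apart under every alternative run, and it was higher in diaphragm. Of the 9 members with at least 50 CPM in the higher muscle, 1 was at least 2-fold higher in diaphragm, where 3.59% of 3311 genes were, and 1, Fmod, was at least 2-fold lower, where 2.93% were. The median log2 difference was 0.14 over the 9 members and -0.10 over all 3311 genes.

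Bgn was at 3110 CPM (3088 to 3131) in diaphragm FAPs and 1268 CPM (1254 to 1282) in quadriceps FAPs, a ratio of 2.45 (2.42 to 2.49). A diaphragm FAP had a median of 33 Bgn UMIs and a quadriceps FAP 9. After every cell was thinned to 1000 UMIs, 88.2% of diaphragm and 53.9% of quadriceps FAPs had a Bgn UMI (99.4% and 80.5% before thinning), against 2.56% and 1.49% of lymphoid cells, whose median depths were 5158 and 3526 UMIs. The cells of diaphragm were higher across the range, with 10.8, 28.6 and 53.7 Bgn UMIs per 10000 at the 10th percentile, the median and the 90th percentile, against 0, 9.82 and 28.3 in quadriceps.

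The direction was the same within all 6 marker-defined FAP subsets with at least 20 cells in each muscle, with ratios from 1.72 to 8.45. These subsets share cells and are not separate observations. Of the Stmn4, Cmah and Fam167a cells, 90.7% in quadriceps and 77.6% in diaphragm were also Pi16, Dpp4 and Sema3c cells. So were 99.2% and 100% of the Dmkn and Sbsn cells. The ratios of these overlapping subsets were the highest, at 4.71, 6.26 and 8.45. The markers of other cells also moved between the muscles. The 7 tenocyte markers summed to 456 CPM in quadriceps FAPs and 1667 CPM in diaphragm FAPs, a sum set by Thbs4 (266 and 1541 CPM). Tnmd (54.0 and 80.6 CPM) and Mkx (1.25 and 2.82 CPM) were also higher in diaphragm, while the other 4 were lower there, Comp at 103.9 and 38.0, Scx at 8.37 and 0.503, Cilp2 at 15.5 and 0.619 and Col11a1 at 6.48 and 3.87 CPM. The 8 smooth muscle markers summed to 195.2 and 36.0 CPM, a sum set by Acta2 (109 and 11.3 CPM) and Tagln (46.6 and 9.90 CPM). Kcnj8 (1.65 and 1.93 CPM) and Abcc9 (3.66 and 8.85 CPM) were higher in diaphragm. The 7 muscle fibre markers summed to 9.42 and 22.8 CPM, of which Acta1 was 1.53 and 8.12 CPM. Myh1 (0.725 and 0.580 CPM) and Myh4 (0.2415 and 0.0773 CPM) were lower in diaphragm. Among FAPs without a Tnmd UMI Bgn was at 2936 CPM in diaphragm and 1238 CPM in quadriceps. The log2 difference was 1.24, against 1.29 over all FAPs.

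Aspn was at 1209 CPM (1195 to 1222) in diaphragm and 652 CPM (642 to 662) in quadriceps FAPs, 1.85-fold (1.82 to 1.89) higher and short of 2-fold. Podn was at 270 and 197 CPM, a ratio of 1.37 (1.32 to 1.42). Lum was at 1972 and 1618 CPM, a ratio of 1.22 (1.20 to 1.24). Aspn and Podn were, like Bgn, higher in diaphragm in 6 of 6 subsets, with ratios of 1.03 to 2.77 and 1.001 to 2.48, of which the lowest lay within counting error of no difference (0.966 to 1.09 for Aspn and 0.931 to 1.08 for Podn).

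Prelp went the other way, at 292 CPM (286 to 299) in diaphragm and 484 CPM (476 to 493) in quadriceps FAPs, a ratio of 0.603 (0.586 to 0.621), and was lower in diaphragm in 6 of 6 subsets. Ogn was at 959 and 1309 CPM, a ratio of 0.733 (0.721 to 0.745), and was lower in 5 of 6. Omd differed little, at 53.1 and 48.2 CPM with a ratio of 1.10 (1.02 to 1.19). The 3 neighbours on chromosome 13 thus differed between the muscles in different directions, Aspn being higher and Ogn lower in diaphragm.

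Fmod was at 32.7 CPM in diaphragm and 129 CPM in quadriceps FAPs, a ratio of 0.253 (0.234 to 0.273). This rested on the 28 quadriceps FAPs with tenocyte markers. Without these and the 10 such FAPs of diaphragm, the log2 difference turned from -1.95 to 0.89. Among FAPs without Tnmd it was 1.36. Kera, at 0.0773 and 12.5 CPM, had a ratio of 0.00620 (0.000747 to 0.0226) from 2 UMIs in diaphragm, and it too came from Tnmd-bearing cells in quadriceps.

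**Figure D3:**
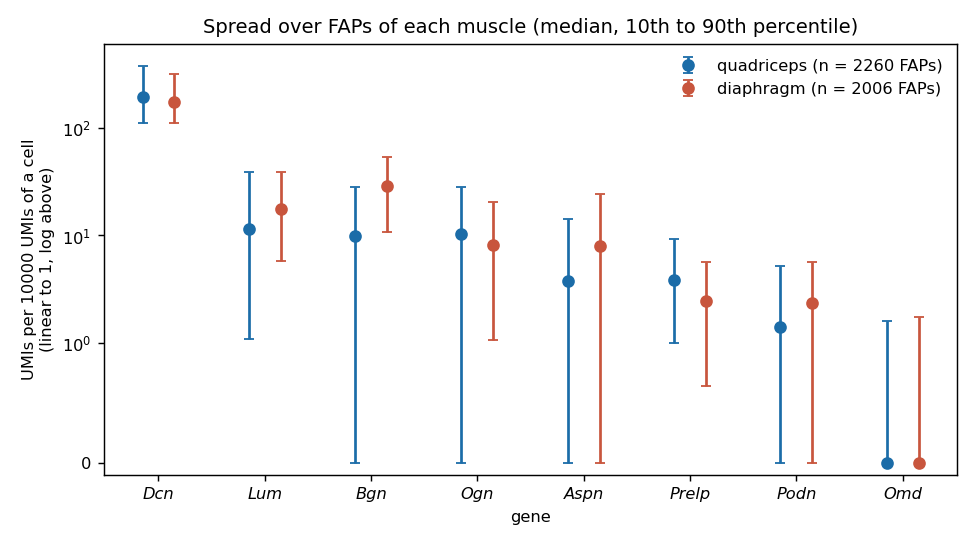
Median (points) and 10th to 90th percentile (bars) over FAPs of the UMIs of each gene per 10000 UMIs of the cell, in quadriceps and diaphragm; the axis is linear to 1 and logarithmic above. The Bgn bar of diaphragm starts at 10.8, close to the quadriceps median of 9.82, while the bars of the other genes overlap over most of their length.

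Within the FAPs of either muscle the members did not vary together as 1 group. FAPs were divided by UMIs of genes that are not SLRPs, and the subsets overlap and leave 41.5% of quadriceps and 39.7% of diaphragm FAPs in none. Cells with Cxcl14 and Hsd11b1 had high Lum and Podn and low Aspn in both muscles. Cells with Pi16, Dpp4 and Sema3c, markers of an adventitial fibroblast state, had low Lum, Podn and Bgn.

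Lum was at 3167 CPM (3114 to 3220) in the 409 Cxcl14 and Hsd11b1 cells of quadriceps and 1292 CPM in the other FAPs, and at 2698 and 1859 CPM in diaphragm (280 cells), log2 differences of 1.29 and 0.54. Podn was at 387 and 157 CPM in quadriceps and 387 and 252 CPM in diaphragm, differences of 1.30 and 0.62. Aspn was at 241 and 738 CPM in quadriceps and 518 and 1316 CPM in diaphragm, differences of -1.61 and -1.34. In these cells Lum and Podn were thus high and Aspn low, and the size of the Lum and Podn differences was larger in quadriceps. Low Aspn did not always go with high Lum and Podn. In the 216 Gdf10, Sfrp1 and Col6a5 cells of diaphragm the log2 differences were -1.10 for Aspn, -0.21 for Lum and 0.05 for Podn. In the 125 Dmkn and Sbsn cells of quadriceps they were -0.94, -3.04 and -2.77.

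In the 595 Pi16, Dpp4 and Sema3c cells of quadriceps Lum was at 457 CPM against 2123 CPM in the other FAPs, Podn at 70.2 against 252 and Bgn at 413 against 1640. In the 426 such cells of diaphragm the values were 1273 and 2204 CPM for Lum, 174 and 302 CPM for Podn and 2584 and 3284 CPM for Bgn. The log2 differences were -2.21, -1.83 and -1.99 in quadriceps and -0.79, -0.79 and -0.35 in diaphragm. Bgn in these cells was 6.26-fold (6.02 to 6.50) higher in diaphragm than in quadriceps, against 2.06-fold (1.99 to 2.12) in Cxcl14 and Hsd11b1 cells. Whether the muscles differ in these subset differences could not be tested with 1 library each.

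Cells with Dmkn and Sbsn, nearly all of which (99.2% and 100%) were also Pi16, Dpp4 and Sema3c cells, went further in quadriceps, with Bgn at 97.2 CPM (83.0 to 113), Lum at 208 CPM (187 to 231) and Podn at 29.9 CPM (22.2 to 39.3) in 125 cells. Ogn stayed at 1511 CPM there and at 1500 CPM in the Pi16 cells, against 1309 CPM over all quadriceps FAPs. In diaphragm the 23 Dmkn and Sbsn cells had Bgn at 821, Lum at 598 and Ogn at 617 CPM. The other diaphragm FAPs had them at 3143, 1992 and 964 CPM, log2 differences of -1.94, -1.73 and -0.64. Ogn therefore did not follow the loss of Bgn and Lum in the quadriceps cells, but was lower along with them in the diaphragm cells.

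Cells with Tnmd and Thbs4 (54 in quadriceps, 289 in diaphragm) had Aspn at 1754 and 1803 CPM, against 621 and 1103 CPM in the other FAPs. Prelp was at 1701 CPM in the quadriceps cells and 357 CPM in the diaphragm cells, a ratio of 0.210 (0.194 to 0.227). The cells of the muscles were not alike in genes high in tenocytes. Fmod was at 4475 CPM in the quadriceps cells and 140 CPM in the diaphragm cells, and Kera at 438 and 0 CPM. The part of this in the Prelp difference was not tested.

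**Figure D4:**
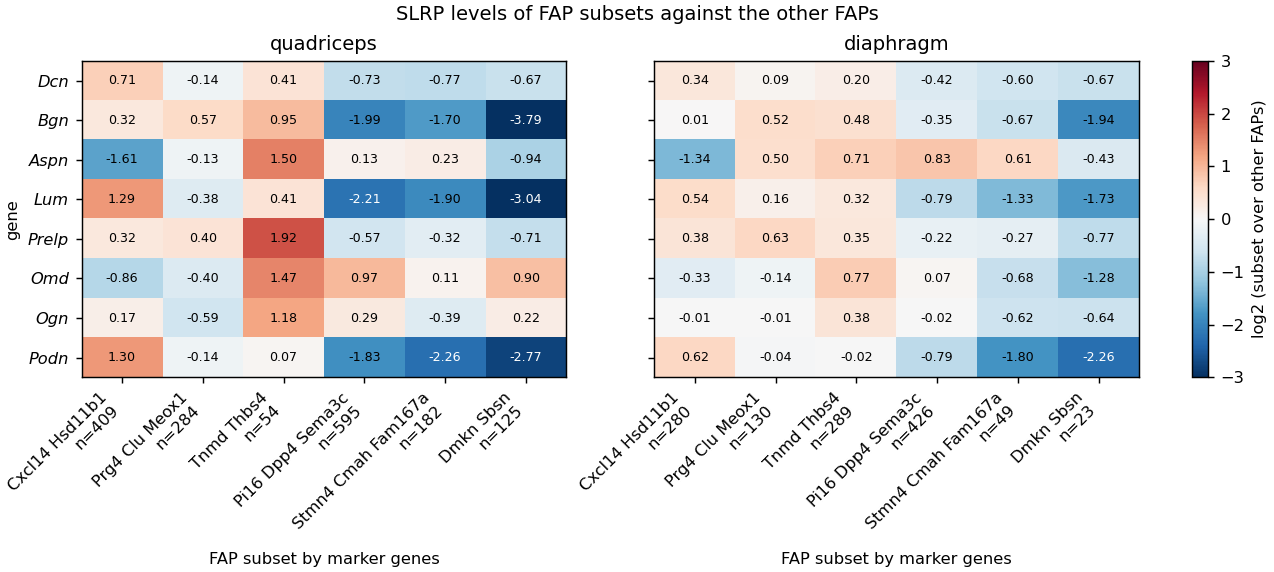
Log2 difference in CPM (pseudocount 1) between FAPs with the markers named under each column and the other FAPs of the same muscle, for 8 genes, with the number of cells; red is higher and blue lower in the subset. Lum and Podn are positive in Cxcl14 Hsd11b1 cells and negative in the 3 columns on the right in both muscles, and Aspn is negative in Cxcl14 Hsd11b1 cells (-1.61 and -1.34).

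Across single FAPs thinned to 3000 UMIs (2241 of quadriceps, 2002 of diaphragm), Pearson correlations of log counts were taken as a description, since cells of a muscle share 1 library and 1 depth, which limits sparse genes. FAPs were chosen by their Dcn UMIs, so correlations with Dcn are over a range that the rule cut off at its low end. Lum correlated with its neighbour Dcn (0.526 in quadriceps, 0.378 in diaphragm) and with Bgn (0.431 and 0.400). Aspn ran against Dcn (-0.206 and -0.211) and Ogn against Bgn (-0.236 and -0.099). Omd and Ogn, 15.2 kb apart, correlated at 0.192 and 0.115, and Aspn, next to Omd, did not follow Ogn (-0.060 and 0.006). Fmod and Kera were detected in too few FAPs (under 10%) to be included.

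For each member the 3 most like genes of 3710, by mean correlation over both muscles, were taken. Lum was most like Col15a1 (mean correlation 0.449), a basement membrane collagen, Igfbp7 (0.423) and Smoc2 (0.401). Bgn was most like Mgp (0.516), the inhibitor of calcification, Cilp (0.492) and Igfbp7 (0.489). Dcn was most like Smoc2 (0.436), Crispld2 (0.405) and Igfbp7 (0.362), and Podn like Smoc2 (0.246), Crispld2 (0.228) and Mgp (0.223). Ogn was most like Lox (0.318), the enzyme that crosslinks collagen, Gpx3 (0.302) and Plpp3 (0.296), and Omd like Lox (0.136), Sfrp2 (0.132) and Thbs2 (0.120). Aspn was most like Crip1 (0.279), Cilp (0.265) and Col8a1 (0.247), and Prelp like Smoc2 (0.198), Fibin (0.164) and Cst3 (0.145).

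Outside fibroblasts, smooth muscle, endothelial, satellite and myeloid cells are described, which are not all the classes of the libraries. A level was named as above the lymphoid level when it was at least 5-fold higher with at least 10 UMIs. In quadriceps this held for Aspn, Ogn, Bgn and Fmod in smooth muscle cells, for Bgn and Prelp in endothelial cells, and for Bgn, Prelp and Ogn in satellite cells. It held for no member in the 67 myeloid cells. The share of all genes that pass this rule in each class was not taken. The names therefore describe single genes and not the members as a group.

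In smooth muscle cells Aspn was at 918 CPM (904 to 933) in quadriceps and 610.5 CPM (543 to 684) in diaphragm, against 9.07 and 12.3 CPM in lymphoid cells, ratios of 101 (60.3 to 185) and 49.8 (25.0 to 117). It was spread over the class, with 2.77% of the quadriceps cells lacking a UMI and a median of 13 per cell. Dcn was at 89.1 CPM in the same cells and 136 CPM in lymphoid cells, a ratio of 0.655 (0.566 to 0.760), and Lum at 6.19 and 12.3 CPM. Aspn was thus high in cells where Dcn and Lum stayed at the lymphoid level or below it.

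Ogn and Bgn were uneven in smooth muscle cells. Ogn was at 299.6 CPM (291 to 308) in quadriceps, 30.8-fold (18.7 to 55.1) above lymphoid cells, but 51.3% of cells had no UMI and most of its UMIs were in 317 cells with at least 5. Bgn was at 203 CPM (197 to 210), with 77.5% of its UMIs in 217 cells. Both genes had at least 5 UMIs in 165 cells, and over 1141 cells thinned to 3000 UMIs they correlated at 0.456, against -0.006 for Aspn and Ogn and -0.151 for Aspn and Bgn. Fmod was low in these cells at 45.7 CPM, with at most 8 UMIs in a cell.

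Satellite cells, the muscle stem cells, had Ogn at 149 CPM (125 to 176), Bgn at 159 CPM (135 to 187) and Prelp at 104 CPM (84.0 to 126) in quadriceps. The ratios to lymphoid cells were 15.3, 15.4 and 16.0. Of these satellite cells (median depth 5155 UMIs), 56.3% had no Ogn, 62.3% no Bgn and 60.5% no Prelp UMI. Dcn was at 132 CPM there, a ratio of 0.970 (0.771 to 1.22), and Lum at 11.6 CPM, a ratio of 0.944 (0.406 to 2.09). Endothelial cells had Bgn at 541 CPM (433 to 668) and Prelp at 296 CPM (217 to 393), from 86 and 47 UMIs in 49 cells. Of these 49 cells (median depth 2624 UMIs), 67.3% had no Bgn UMI and 69.4% no Prelp UMI. They had no UMI of Aspn, Lum, Ogn, Omd, Kera or Podn, which allows up to 18.9 CPM for each. Prelp was also high in the 6 endothelial cells of diaphragm, at 678 CPM (395 to 1085) from 17 UMIs. Bgn and Prelp were thus above the lymphoid level in both satellite and endothelial cells of quadriceps, and Ogn in satellite cells.

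The other genes of the pathway were read from lists by the same rule. In diaphragm FAPs 3.59% of all tested genes were at least 2-fold higher and 2.93% at least 2-fold lower. In tenocytes the shares were 7.46% and 13.2%, so none called in a short list is not a result about its genes. Among the other SLRP family genes, 1 of 8 reached 50 CPM in FAPs of either muscle: Ecm2, next to Aspn, at 244 CPM in diaphragm and 232 CPM in quadriceps. In tenocytes 2 of 8 did, and both were at least 2-fold higher than in FAPs. Chad (chondroadherin, a cell-binding matrix protein of cartilage and tendon) was at 2015 and 14.3 CPM, a ratio of 141 (125 to 159), and Ecm2 at 616 and 232 CPM, a ratio of 2.66 (2.39 to 2.95).

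Of 21 chondroitin and dermatan sulfate enzymes, 5 were measured at this level in the comparison of muscles and 6 in that of tenocytes, and none differed 2-fold. Chpf, a chondroitin polymerizing factor, was nearest, at 104 CPM in diaphragm and 53.5 in quadriceps FAPs (1.95-fold, 1.83 to 2.09), followed by Dsel (52.9 and 67.7 CPM) and Dse (61.3 and 77.1 CPM), epimerases that make dermatan sulfate. In tenocytes Chpf2, Dse and Chst12 were at 59.3, 130 and 112 CPM, 1.93-, 1.69- and 1.63-fold above FAPs. Of 8 keratan sulfate enzymes 1 reached 50 CPM, B4galt1, a galactosyltransferase. It was at 54.5 CPM in tenocytes and 153 CPM in FAPs (ratio 0.357, 0.247 to 0.499) and at 162 CPM in diaphragm FAPs. The others were under 50 CPM in both comparisons and were not compared. Among these, Chst5 had 11 UMIs in tenocytes and 7 in quadriceps FAPs, and Chst1 had 0 and 839.

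Among 11 receptors and sensors, 5 were measured between muscles and 6 in tenocytes. None differed 2-fold between muscles. Egfr, which decorin binds, was at 104 CPM in diaphragm and 201 CPM in quadriceps FAPs (0.518, 0.494 to 0.543), Cd44 at 44.7 and 70.3 CPM, and Lrp1, an endocytic receptor, at 1018 and 791 CPM. In tenocytes 1 was at least 2-fold higher, where 7.46% of all tested genes were. It was Itga2, a collagen-binding integrin chain, at 52.9 and 4.51 CPM (11.7-fold, 7.71 to 17.4). Egfr was at 117 and Lrp1 at 481 CPM in tenocytes.

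Among 9 processing proteases and their enhancers, 6 were measured in each comparison. Pcolce2, which enhances procollagen processing, was at 408 CPM in diaphragm and 850 CPM in quadriceps FAPs (0.479, 0.468 to 0.491), and Adamts5, which cleaves proteoglycans, at 447 and 896 CPM (0.4985, 0.487 to 0.510). These 2 were lower by at least 2-fold, where 2.93% of all tested genes were, Adamts5 at the limit itself. Mmp14 was at 79.3 and 145 CPM. In tenocytes 2 were at least 2-fold lower, where 13.2% of all tested genes were. Adamts5 was at 138 CPM (0.154, 0.123 to 0.190). Bmp1, which cuts the propeptide of biglycan, was at 115 CPM against 259 (0.446, 0.349 to 0.562). Mmp14 was at 91.4 CPM in tenocytes. Among 11 other matrix proteoglycans 4 were measured, with no 2-fold difference between muscles: Prg4 (lubricin) was at 260 and 496 CPM, Vcan (versican) at 176 and 320 CPM and Spock2 at 84.5 and 47.6 CPM. In tenocytes Prg4 was at 1513 CPM and Spock2 at 125 CPM, 3.05- and 2.63-fold above FAPs, and Vcan at 48.1 CPM, a ratio of 0.150 (0.101 to 0.215).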

How the data were processed

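The deposited files were matrices of raw UMI counts, made by the authors in Cell Ranger 3.0.0 (submitters' processing notes) from Chromium 3′ libraries on GRCm38 (mm10). Seurat, named in the submitters' processing notes, left no values in these files. No other normalization was present in the files.

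Counts were summed here per class and scaled to CPM (Python 3.11.15, numpy 2.4.6, scipy 1.17.1). Classes were set by marker UMIs: tenocytes by Tnmd of at least 2, Scx, Cilp2, Mkx and Col11a1 together at least 3 and no Pdgfra; smooth muscle by Myh11 of at least 10; endothelial (6 genes) and myeloid cells by at least 10; satellite, T, B and NK cells by at least 3; mesothelial cells by at least 5. A further class was set apart and is not reported here. Gate thresholds were set after marker distributions were seen. Barcodes passing 2 gates (108 in quadriceps, 5 in diaphragm) were set aside. No mitochondrial limit was applied (a limit of 5% left 2 of 1157 quadriceps smooth muscle cells), and no doublet caller was run. A pericyte class was dropped because its markers also selected FAPs. FAP subsets needed Tnmd and Thbs4 of at least 2 each; Pi16 of at least 10 with Dpp4 and Sema3c; Dmkn and Sbsn of at least 2; Stmn4, Cmah and Fam167a; Prg4 and Clu of at least 2 with Meox1; Cxcl14 and Hsd11b1 of at least 3; Gdf10, Sfrp1 and Col6a5; or Has1 and Tnfaip6 of at least 3, with at least 1 UMI where no number is given.

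Log2 differences used a pseudocount of 1 CPM, and genes were compared when 1 of the groups reached 50 CPM. Where no UMI was found, 3 counts over the group set the limit printed. Cells were thinned at random to 1000 UMIs for shares and 3000 for correlations. The fold rule was tested on simulated data. The comparison of tenocytes with FAPs was planned for both muscles but had cells in quadriceps only. For each list, the 3 genes with the largest change were named. The members and lists were chosen with earlier results of these data known.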

Additional observations from a re-analysis of the deposited data

Results flagged for a closer look

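Omd in the Dmkn and Sbsn subset differed in direction between the muscles. It was above the other FAPs by 0.90 on the log2 scale in quadriceps (85.5 against 45.4 CPM, 146 UMIs in 125 cells) and below them in diaphragm, at -1.28 (21.5 against 53.5 CPM, 8 UMIs in 23 cells). The difference was not tested, since each muscle had 1 library.

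SLRP transcripts were also present in barcodes that no comparison used. The 10 genes together were at 12027 CPM in the 563 quadriceps barcodes of no class and at 17654 CPM in the 224 of diaphragm, against 188.5 and 233 CPM in lymphoid cells. In barcodes under 1000 UMIs they were at 7375 CPM in quadriceps (149 barcodes) and 4125 CPM in diaphragm (67 barcodes). Fmod was at 279 CPM in the quadriceps barcodes of no class and at 14.4 CPM in those of diaphragm.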

How the results depend on the processing

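The share of SLRP UMIs held by FAPs was 84.9% in quadriceps and 97.0% in diaphragm. It was 94.5% and 97.6% with at most 5% mitochondrial UMIs, 85.5% and 97.3% with at least 3000 UMIs, 79.0% and 92.8% with Pdgfra of at least 2 and no Dcn limit, 87.8% and 97.2% with mixed barcodes given to FAPs or tenocytes, and 97.1% in diaphragm under an upper UMI limit. Of 2 members that differed 2-fold between muscles, 1 (Bgn) remained without FAPs carrying tenocyte markers and 1 (Bgn) without FAPs carrying Tnmd, alternatives added after the data were seen, under which the Fmod log2 difference was 0.89 and 1.36. With at most 5% mitochondrial UMIs, which left 10 tenocytes, the Lum difference between tenocytes and FAPs was 0.39 in place of -1.51, and Bgn (1.20) and Podn (1.27) passed 2-fold. With tenocytes taken whatever their Pdgfra (101 cells), Lum was at -0.81. The cause was not tested. Bgn remained at least 2-fold higher in diaphragm FAPs under every alternative run. No paired analysis was possible because each muscle had 1 library. With 1 library per muscle, the spread between animals is unknown, and classes under 50 cells rest on few UMIs.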

Other observations

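In 9 diaphragm barcodes with mesothelial markers (the cells that cover the diaphragm surface), Dcn was at 8439 CPM (7849 to 9061), Fmod at 600.4 CPM (451 to 783) and Ogn at 389 CPM (271 to 541), while Aspn had no UMI, which allows up to 33.4 CPM, and Lum had 1. Fmod UMIs were found in 7 of the 9, and 1 cell held 40.7% of the 54. In the 12 diaphragm satellite cells, Dcn was at 1263 CPM and Lum at 156 CPM, with 90.7% and 91.7% of the UMIs of these genes in 1 cell. Chodl, listed as a satellite cell marker, was at 782 CPM in tenocytes, where Pax7, Myf5, Myod1, Calcr and Cdh15 had no UMI.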
